A study of Rattus norvegicus with 24 samples.

Results

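Messenger RNA of 5 enzymes that oxidise arachidonic acid, or process the products, was followed in the livers of 24 female Sprague-Dawley rats. The rows were chosen by their Ensembl gene IDs, and they were 5 of the 26404 IDs in each count table: Ptgs1 (ENSRNOG00000007415), Ptgs2 (ENSRNOG00000002525), Alox5 (ENSRNOG00000012972), Alox15 (ENSRNOG00000019183) and Ephx2 (ENSRNOG00000017286). The symbols were given with the IDs for this work, since the count tables held IDs only. The rats, an outbred stock, received sesame oil vehicle or TCDD by gavage once in 4 days over 28 days, after which the liver was sampled. TCDD, a dioxin, is a ligand of the aryl hydrocarbon receptor. Beside vehicle there were 7 TCDD groups, at 10, 3, 1, 0.3, 0.1, 0.03 and 0.01 µg/kg, and each of the 8 groups had 3 libraries, which the labels call biological replicates. The labels give an age of 57 days for every rat, and all rats were female. The series is about polyunsaturated fatty acids and eicosanoids in liver, going by its title.

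Arachidonic acid is freed from membrane phospholipids and then takes 1 of several oxidative routes. Cyclooxygenases make the prostaglandin endoperoxide from which prostaglandins and thromboxane arise. Lipoxygenases make hydroperoxides, which lead to leukotrienes and lipoxins, and cytochrome P450 enzymes make epoxides, which soluble epoxide hydrolase opens to diols. In liver the hydrolase is abundant in hepatocytes, whereas lipoxygenases are best known from leukocytes and macrophages.

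Gene counts ranged from 11816273 to 15804887 per library, so that 1 count equalled 0.0580 to 0.0873 CPM, the count per library scaled to a common total with TMM factors of 0.898 to 1.11. The summary rows of a table hold reads not assigned to a gene, among them alignments that were not unique. In the 3 libraries at 10 µg/kg these rows took 42.2% to 47.5% of the table, against 35.8% to 41.4% in the other 21 libraries. Alignments that were not unique made up 29.3% to 35.0% there and at most 25.8% elsewhere. The part of this in the differences at 10 µg/kg was not tested, and trends are therefore also given without that dose. Ptgs1, Alox15 and Ephx2 passed the filter on low counts and were tested. Ptgs2 and Alox5 did not pass and are too low to judge by that rule. Each held 81 counts over all 24 libraries, with at most 18 counts of Ptgs2 and 12 of Alox5 in a library. Their values are given as counts, and their tests come from a fit with no low-count filter. Lists of markers of liver cell types could not be matched to the IDs, so neither the labelled tissue nor the share of other cell types was checked. In whole liver, fewer cells that express a gene and less of its RNA per cell cannot be told apart.

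The RefSeq promoter table (build GRCr8) held 3 of the 5 genes. The 250 bases before the annotated start are shown because TCDD acts through a receptor that binds the core letters GCGTG. Both strands were searched, so that CACGC is the same core on the other strand, and matches are in capitals. Positions are chr3:39981169-39981418 on the + strand for Ptgs1, chr13:64713813-64714062 on the + strand for Ptgs2 and chr4:151251127-151251376 on the - strand for Alox5.
Ptgs1: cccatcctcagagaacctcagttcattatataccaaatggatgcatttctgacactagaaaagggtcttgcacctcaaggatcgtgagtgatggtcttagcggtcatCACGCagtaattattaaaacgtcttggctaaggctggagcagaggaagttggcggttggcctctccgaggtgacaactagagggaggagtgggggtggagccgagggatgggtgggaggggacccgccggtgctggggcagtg
Ptgs2: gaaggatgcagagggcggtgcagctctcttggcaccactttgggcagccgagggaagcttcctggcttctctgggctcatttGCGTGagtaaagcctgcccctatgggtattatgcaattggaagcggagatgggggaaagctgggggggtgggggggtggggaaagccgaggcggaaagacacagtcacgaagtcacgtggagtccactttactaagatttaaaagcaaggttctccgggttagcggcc
Alox5: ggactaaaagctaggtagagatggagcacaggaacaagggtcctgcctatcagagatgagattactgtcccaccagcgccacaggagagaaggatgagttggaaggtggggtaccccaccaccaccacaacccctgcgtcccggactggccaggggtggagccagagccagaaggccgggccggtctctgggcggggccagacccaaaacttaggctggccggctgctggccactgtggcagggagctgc
Ptgs1 held 1 match that began 143 bases before the start, Ptgs2 held 1 at 168 bases, and Alox5 held 0. Of all 33469 promoters in the table, 25.9% held at least 1 match in the same window. A match describes letters and is no evidence of binding.

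Ptgs1, the cyclooxygenase that most tissues make constitutively, was present in every library at 18.3 to 47.0 CPM. The vehicle libraries held 32.4, 25.9 and 47.0 CPM, with a mean of 35.1 ± 10.8 (SD, n = 3). The libraries at 10 µg/kg held 20.0, 25.6 and 25.0 CPM, with a mean of 23.6 ± 3.05 (SD, n = 3). All 3 lay below all 3 vehicle libraries, by a narrow margin between 25.6 and 25.9 CPM. Across genes tested, 21.3% had all 3 libraries at 10 µg/kg below all 3 of vehicle.

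The difference of Ptgs1 at 10 µg/kg missed the threshold, with a log2 fold change of -0.57 (SE 0.216; edgeR adjusted p = 0.0521), while 13.5% of genes tested passed as lower at that dose. DESeq2 placed the same log2 value past the threshold (adjusted p = 0.0465). At 3 µg/kg the libraries held 18.3, 32.4 and 22.2 CPM, which overlapped vehicle, and the log2 fold change was -0.53 (SE 0.217; edgeR adjusted p = 0.112). Without replicate 2 at 3 µg/kg, the highest of that group, it was -0.78 and passed (edgeR adjusted p = 0.0330), and omissions of the other libraries gave values up to -0.27. The vehicle library with 47.0 CPM, replicate 3, set much of the size: without it the log2 value at 10 µg/kg was -0.31 (edgeR adjusted p = 0.314). Without vehicle replicate 2, the lowest, the value was -0.74 and passed (edgeR adjusted p = 0.0220).

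Over all 8 groups, Ptgs1 fell with the rank of the dose by the slope test, at -0.09 log2 units per step (SE 0.0217; edgeR adjusted p = 0.00271), and 15.8% of genes tested had a falling slope that passed. The F test of any dose, which 21% of genes passed, did not call Ptgs1 (edgeR adjusted p = 0.192). Without the 10 µg/kg libraries the slope was -0.09 (edgeR adjusted p = 0.0304), where 1986 of 12293 genes passed in either direction. The means were 34.3 ± 6.17, 34.7 ± 0.811, 27.9 ± 3.06, 27.9 ± 6.32 and 28.1 ± 2.14 CPM (SD, n = 3) in dose order from 0.01 to 1 µg/kg. In order of level the groups ran from vehicle over 0.03 and 0.01 µg/kg to 1, 0.1, 0.3, 3 and 10 µg/kg. The ranges of neighbours in this order overlapped, except between 0.01 and 1 µg/kg. No omission of any 1 of the 24 libraries ended the trend call, with slopes of -0.10 to -0.07 and edgeR adjusted p of 0.000749 to 0.0116.

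Ptgs2, the inducible cyclooxygenase of inflammation and growth signals, was near the limit of detection. The vehicle libraries held 2, 0 and 1 counts, and 5 of the 24 libraries held none. A count of 0 allows up to 3 counts, or 0.207 to 0.241 CPM in those 5 libraries. Those at 10 µg/kg held 7, 18 and 8 counts, or 0.460, 1.04 and 0.497 CPM, each above every vehicle library, as was found for 17.3% of the 18198 genes with a count. Between these groups the counts were scattered: the 3 libraries at 0.1 µg/kg held 7, 2 and 0, those at 1 µg/kg 5, 10 and 0, and those at 3 µg/kg 5, 1 and 4. The remaining doses held at most 3 counts in a library.

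The summed counts of Ptgs2 were 33 at 10 µg/kg and 3 in vehicle, a ratio of 8.44 in CPM with an exact binomial 95% interval of 2.65 to 43.0. That interval covers counting error only and not the spread between rats. In the fit with no low-count filter Ptgs2 at 10 µg/kg stood at a log2 fold change of 2.93 with an SE of 1.05, short of the threshold (edgeR adjusted p = 0.0536), and from 2.39 without vehicle replicate 2 to 3.75 without vehicle replicate 1. Its slope over dose rank passed, at 0.40 log2 units per step (SE 0.109; edgeR adjusted p = 0.00766), where 13.4% of the 18198 genes of that fit had a rising slope that passed. Without single libraries the edgeR adjusted p of the slope ran from 0.00340 to 0.0487. Without the 10 µg/kg libraries the slope no longer passed, at 0.31 (edgeR adjusted p = 0.208), and the F test of any dose over all 24 libraries did not pass (edgeR adjusted p = 0.160).

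**Figure D1:**
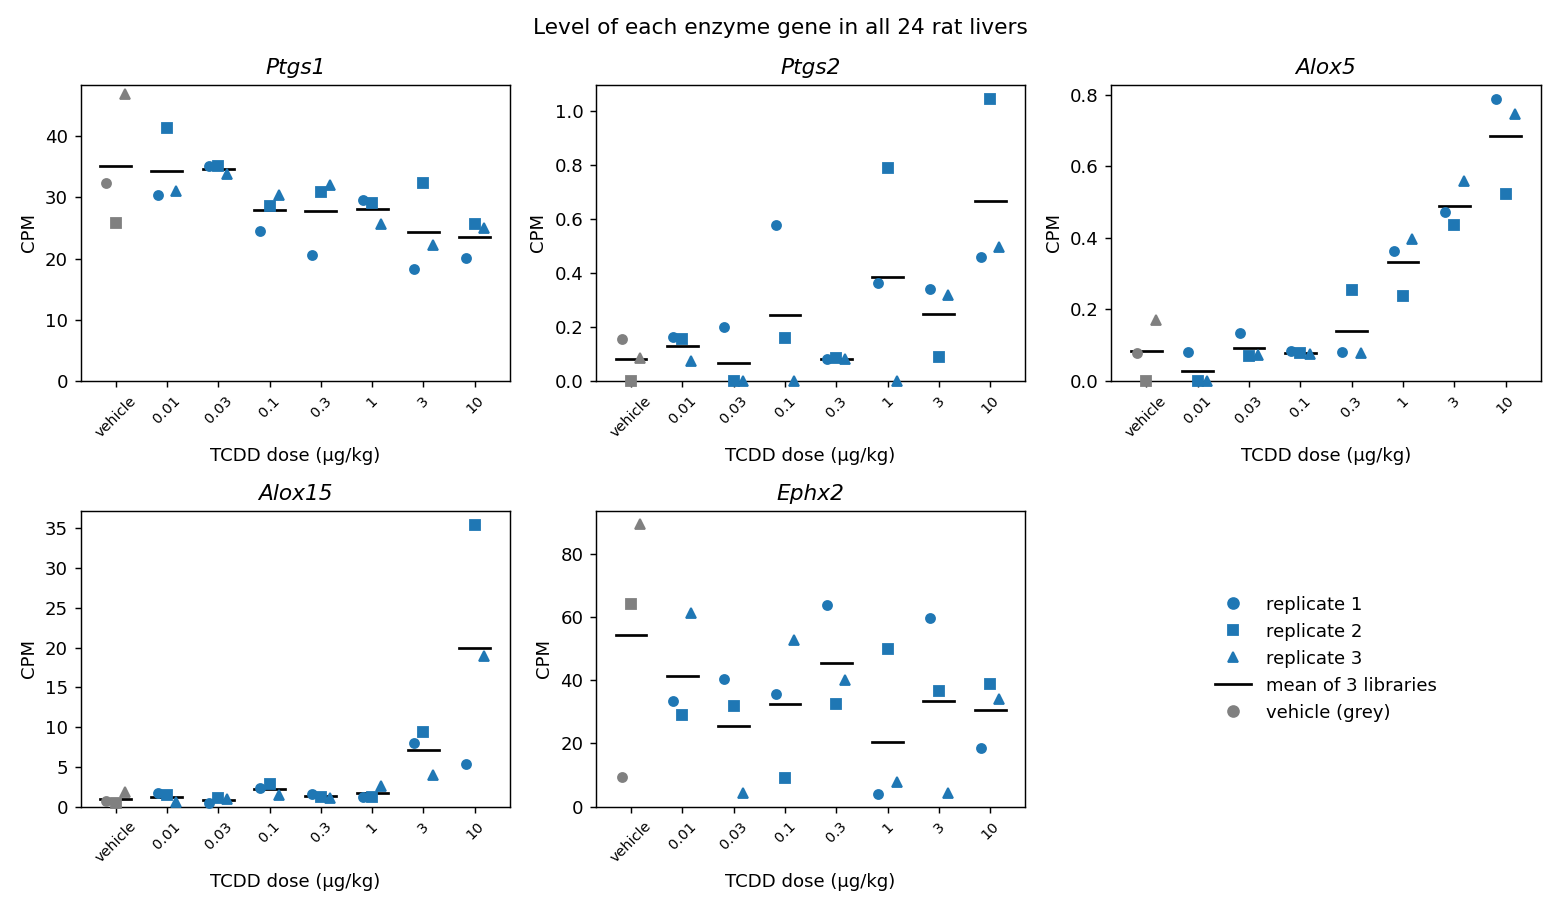
CPM of each gene (vertical axis, from 0, a scale of its own per gene) in all 24 libraries, by TCDD dose in µg/kg; symbols are the 3 replicates, grey is vehicle and bars are means of 3. Alox15 leaves the vehicle range at 3 and 10 µg/kg, Alox5 climbs from 1 µg/kg on at under 1 CPM, and Ptgs1 drifts lower. Ephx2 spreads from 3.99 to 89.4 CPM, with its highest mean in vehicle and no order among the TCDD doses.

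Alox5, the lipoxygenase that starts leukotriene synthesis, was as scarce as Ptgs2, and its libraries of a group lay within 3 counts of each other. In the RefSeq gene table a transfer RNA gene, Trnap-ggg3, overlaps Alox5, and its reads, if any, could not be told apart. The vehicle libraries held 1, 0 and 2 counts, and the 12 libraries from 0.01 to 0.3 µg/kg held 0 to 3. The libraries at 1 µg/kg held 5, 3 and 5 counts, those at 3 µg/kg 7, 5 and 7, and those at 10 µg/kg 12, 9 and 12. In CPM the means at these doses were 0.332 ± 0.0848, 0.489 ± 0.0627 and 0.686 ± 0.143 (SD, n = 3), against 0.0821 ± 0.0848 in vehicle. At each of these 3 doses all libraries lay above all vehicle libraries, as did 8.17%, 11.1% and 17.3% of the 18198 genes with a count. The CPM ranges at 3 and 10 µg/kg overlapped, whereas those at 1 and 3 µg/kg did not. In counts it was the reverse: 1 and 3 µg/kg met at 5 counts, while 3 and 10 µg/kg were separate.

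Alox5 is too low to judge by the filter rule, so its tests describe the fit with no low-count filter only. In that fit Alox5 passed the threshold at 10 µg/kg, at 2.94 log2 units with an SE of 0.688 (edgeR adjusted p = 0.00342). Of all genes in that fit, 9.66% passed as higher at this dose. At 3 µg/kg Alox5 also passed, at 2.48 log2 units with an SE of 0.721 (edgeR adjusted p = 0.0348), beside 4.78% of genes. At 1 µg/kg it did not, at 1.93 log2 units with an SE of 0.754 (edgeR adjusted p = 0.253). The call at 3 µg/kg was lost without vehicle replicate 1 or 2 and without any 1 of the libraries at that dose (edgeR adjusted p = 0.0562 to 0.162). The call at 10 µg/kg was kept in all 6 omissions, with log2 values of 2.41 without vehicle replicate 2 and 3.84 without vehicle replicate 3. These fitted values rest on 3 vehicle counts. The ratio of summed counts in CPM was 8.44 at 10 µg/kg (exact 95% interval 2.65 to 43.0), the same as for Ptgs2 because both genes summed to 33 against 3 counts, and 6.08 at 3 µg/kg (1.79 to 32.1), for counting error alone. The slope of Alox5 over dose rank was 0.57 log2 units per step (SE 0.0710; edgeR adjusted p = 1.35e-06). A rising slope passed for 13.4% of genes in that fit. Leaving out the 10 µg/kg libraries gave 0.56 (edgeR adjusted p = 4.69e-04), where 1821 of 17971 genes passed in either direction. The F test of any dose called Alox5 (edgeR adjusted p = 8.05e-04) and 13.2% of genes.

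Alox15, the lipoxygenase that oxygenates arachidonic and linoleic acid and is known from macrophages and eosinophils, showed the largest change of the 3 genes tested. The vehicle libraries held 9, 5 and 21 counts, or 0.694, 0.401 and 1.78 CPM (mean 0.958 ± 0.725, SD, n = 3). The libraries at 3 µg/kg held 118, 107 and 50 counts, or 7.98, 9.34 and 3.99 CPM (mean 7.10 ± 2.78, SD, n = 3). The libraries at 10 µg/kg held 82, 612 and 305 counts, or 5.39, 35.5 and 19.0 CPM (mean 19.9 ± 15.1, SD, n = 3). All 6 libraries of these doses lay above every other library of the study, of which the highest held 2.83 CPM at 0.1 µg/kg. Among all genes tested, 0.976% had these 6 libraries above all the others.

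Alox15 rose at 3 µg/kg with a log2 fold change of 2.89 (SE 0.622; edgeR adjusted p = 0.00431), a 7.43-fold difference from vehicle. It rose at 10 µg/kg with a log2 fold change of 4.38 (SE 0.624; edgeR adjusted p = 3.16e-05), a 20.9-fold difference. Of the 3 genes tested, Alox15 was the 1 that passed in each of these comparisons, while 7.94% and 14.7% of all genes tested passed as higher at 3 and 10 µg/kg. Both calls were kept in every omission of a vehicle or dose library, but single libraries moved the sizes. Without vehicle replicate 3 the log2 value became 3.67 at the lower and 5.16 at the higher of these doses. Without the highest library, replicate 2 at 10 µg/kg, the value at that dose was 3.67.

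At the doses up to 1 µg/kg Alox15 stayed between 0.399 and 2.83 CPM. Group means were 1.24 ± 0.633, 0.812 ± 0.358, 2.21 ± 0.671, 1.29 ± 0.318 and 1.68 ± 0.820 CPM (SD, n = 3) from 0.01 to 1 µg/kg. None of these groups was clear of vehicle, and neighbours in the order of level overlapped, apart from the step between 3 and 0.1 µg/kg. The largest of the 5 values was at 0.1 µg/kg, with a log2 fold change of 1.21 (SE 0.658; edgeR adjusted p = 0.463). Across all 8 groups the slope was 0.64 log2 units per step (SE 0.0809; edgeR adjusted p = 1.90e-06), and the F test of any dose also passed (edgeR adjusted p = 4.38e-06). A rising slope passed for 17.8% of genes tested. Without the 10 µg/kg libraries the slope of Alox15 was 0.43 (edgeR adjusted p = 0.00123), where 1986 of 12293 genes passed in either direction.

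Between the highest doses, the Alox15 mean at 10 µg/kg was 2.81-fold that at 3 µg/kg in the fit, but the ranges overlapped and the difference missed the threshold (log2 1.49, SE 0.512; edgeR adjusted p = 0.0954). The call turned on 1 library. Without replicate 1 at 10 µg/kg, the lowest, the log2 difference was 1.94 (edgeR adjusted p = 0.0143), and without replicate 2, the highest, it was 0.78 (edgeR adjusted p = 0.501).

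**Figure D2:**
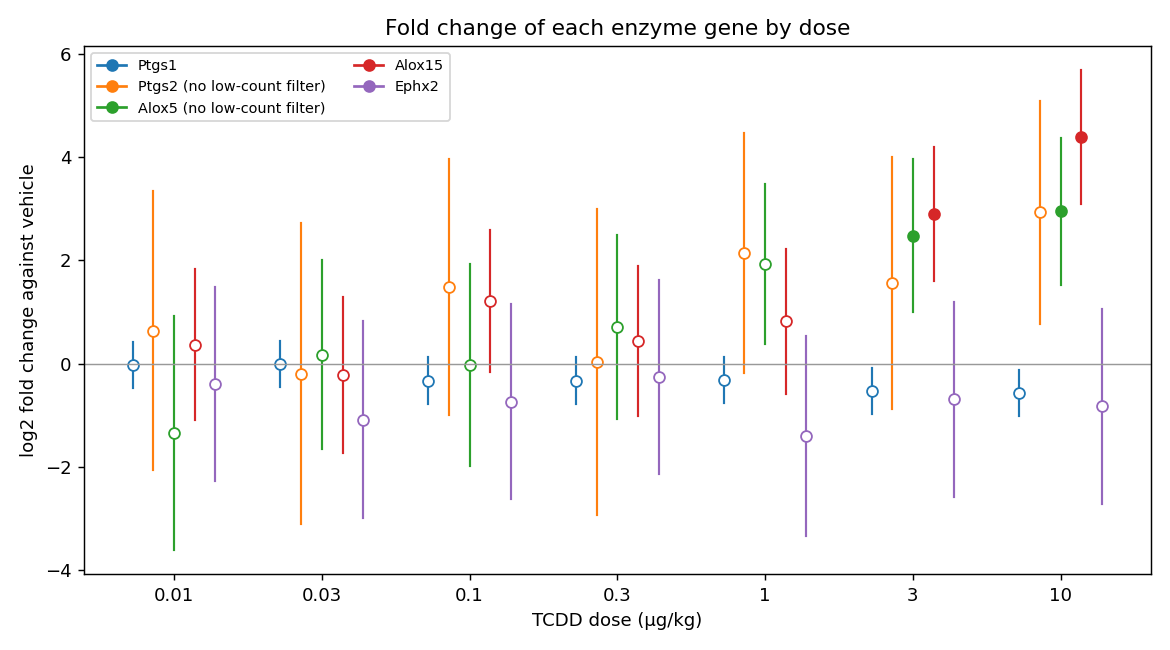
Log2 fold change against vehicle (vertical axis) at each TCDD dose in µg/kg, with 95% intervals from the edgeR fit; filled points have an adjusted p below 0.05, and Ptgs2 and Alox5 come from the fit with no low-count filter. All comparisons share the 3 vehicle libraries, and the filled points are Alox15 and Alox5 at 3 and 10 µg/kg.

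Ephx2 encodes soluble epoxide hydrolase, which opens epoxides of arachidonic and linoleic acid. Its level differed up to 13.6-fold between rats of 1 group, while group means lay between 20.5 and 54.3 CPM. The vehicle libraries held 9.49, 64.1 and 89.4 CPM, the libraries at 1 µg/kg 3.99, 49.8 and 7.81 CPM, and those at 3 µg/kg 59.7, 36.7 and 4.39 CPM. Vehicle replicate 1 was thus 9.42-fold below vehicle replicate 3 with the same treatment. The libraries at 10 µg/kg held 18.6, 39.0 and 34.1 CPM, all within the vehicle range.

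Group means of Ephx2 were 54.3 ± 40.8 CPM in vehicle, 41.3 ± 17.6 at 0.01, 25.5 ± 18.7 at 0.03, 32.5 ± 22.0 at 0.1, 45.4 ± 16.3 at 0.3, 20.5 ± 25.4 at 1, 33.6 ± 27.8 at 3 and 30.5 ± 10.6 CPM at 10 µg/kg (SD, n = 3). The vehicle mean was the highest, so that every TCDD mean lay below it, but every pair of neighbours in the order of level overlapped. The log2 fold change at 10 µg/kg was -0.83 with a 95% interval of -2.72 to 1.06 (SE 0.907; edgeR adjusted p = 0.536). The slope over dose rank was -0.09 log2 units per step (SE 0.0895; edgeR adjusted p = 0.453). Leaving out the 10 µg/kg libraries gave a slope of -0.11 (edgeR adjusted p = 0.562). The F test of any dose over all 24 libraries gave an edgeR adjusted p of 0.881. The log2 value of Ptgs1 at 10 µg/kg, -0.57, lay inside the interval of Ephx2, so a difference of that size is not excluded for Ephx2. In size it was also smaller than the SE of Ephx2, 0.907.

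Within groups, the SD of log2 CPM was 1.41 for Ephx2, 0.775 for Alox15 and 0.279 for Ptgs1, against a median of 0.290 over the 12496 genes tested. Ephx2 lay above 99.5% of all genes tested, and above 99.7% of the 1860 genes within 0.5 log2 CPM of its mean level. Alox15 lay above 96.1% and Ptgs1 above 47.4% of all genes tested. Against genes of similar level, Alox15 lay above 93.2% of 1365 and Ptgs1 above 76.4% of 1790. Counting error is part of this SD for genes at the level of Alox15. Ranked over all 24 libraries, Ephx2 showed its widest step between 9.49 and 18.6 CPM, a ratio of 1.96. The 6 libraries below that step came from 5 groups: vehicle replicate 1, 0.03 µg/kg replicate 3, 0.1 µg/kg replicate 2, 1 µg/kg replicates 1 and 3, and 3 µg/kg replicate 3. The next widest step, a ratio of 1.76 between 4.44 and 7.81 CPM, had 3 libraries below it. These came from TCDD groups, to which all but 3 of the 24 libraries belong. Both steps were picked after the values were seen.

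**Figure D3:**
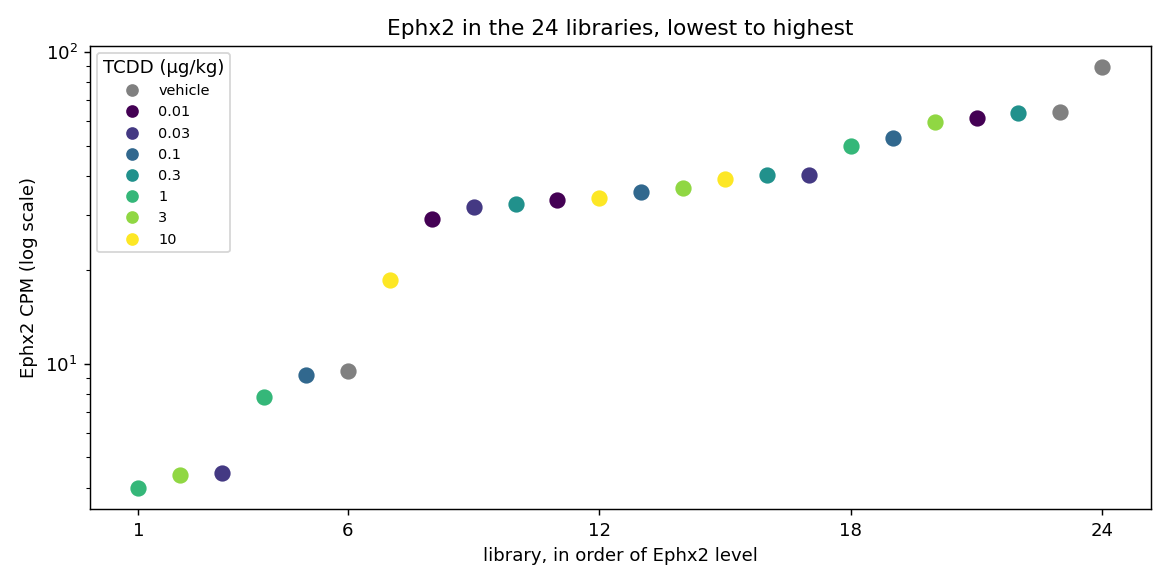
Ephx2 CPM (vertical axis, log scale) of the 24 libraries in order of level (horizontal axis); colours give the TCDD dose, grey is vehicle. The lowest 6 libraries, from 3.99 to 9.49 CPM, come from 5 groups, and vehicle libraries hold rank 6 and ranks 23 and 24.

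At doses up to 1 µg/kg edgeR called 0 of the 15 member comparisons of the 3 genes tested. None of the 15 had an unadjusted p below 0.05 in edgeR, and DESeq2 called 0, with 1 at an unadjusted p below 0.05. Of all genes tested, edgeR called 0.008% and 0.016% at 0.01 and 0.03 µg/kg, 0.92% at 0.1, 2.06% at 0.3 and 2.11% at 1 µg/kg. The low-count genes Ptgs2 and Alox5 also had 0 calls in their 10 comparisons at these doses, with 1 unadjusted p below 0.05 in edgeR and 8 comparisons with no adjusted p from DESeq2. That fit called 0.0055%, 0.0165%, 0.648%, 1.09% and 1.27% of its genes. For 10 against 3 µg/kg edgeR and DESeq2 called 0 of the 3 genes tested, each with 1 at an unadjusted p below 0.05, where edgeR called 5.29% of all genes. The median log2 fold change at 10 µg/kg was -0.02 over all 12496 genes. Among the 3 genes tested it was -0.57, which is the value of Ptgs1, beside 4.38 for Alox15 and -0.83 for Ephx2. The log2 values of these 3 genes had the same direction with RLE scaling, with DESeq2 and with both other low-count filters.

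**Figure D4:**
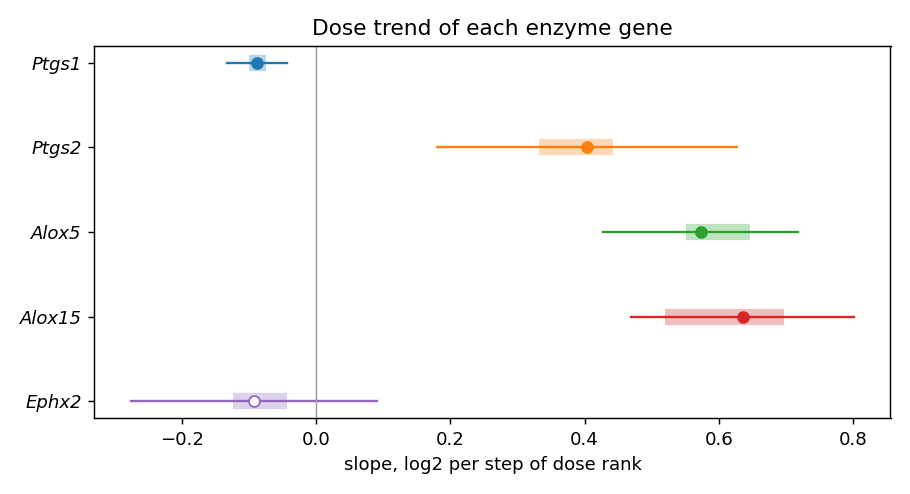
Slope of each gene in log2 units per step of dose rank (horizontal axis), with 95% intervals as lines and the range over 24 omissions of a single library as broad bars; filled points have an adjusted p below 0.05. Alox15, Alox5 and Ptgs2 have slopes above 0, Ptgs1 has a slope of -0.09 and the interval of Ephx2 spans 0. The Ptgs2 and Alox5 slopes come from the fit with no low-count filter, and both genes are too low to judge by that filter.

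By the Pearson correlation of log2 CPM over the 8 group means, the IDs most like Alox15 were ENSRNOG00000013911 (r = 0.986; 12.8 CPM in vehicle and 19.2 at 10 µg/kg) and ENSRNOG00000021185 (r = 0.984; 1.31 and 12.5 CPM). Those most like Ptgs1 were ENSRNOG00000047453 (r = 0.979; 13.0 and 8.20 CPM) and ENSRNOG00000007126 (r = 0.979; 3.23 and 1.76 CPM). Of the 11350 IDs compared, 980 had an r above 0.8 with Alox15 and 919 with Ptgs1, whereas 26 had one with Ephx2. Group means share their libraries and the dose order, and these values are a description. The sources used here gave no symbols for these IDs.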

How the data were processed

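Each library had 1 deposited table, which pairs Ensembl gene IDs with raw read counts. Per the submitters' processing notes, the authors used HTSeq 0.6.1, DESeq, TopHat 1.4.1, cutadapt 1.4.1, SAMtools 0.1.2 and FastQC 0.11.2. Their order, the genome build, annotation release and strand setting are not given in the sources used here, so reads of overlapping genes are uncertain. RNA came from TRIzol extracts and libraries from an Illumina TruSeq RNA kit, per the labels' protocols. The 5 summary rows of each table, 35.8% to 47.5% of its total, were left out.

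The analysis ran in R 4.3.3 and used edgeR 4.0.16: filterByExpr on 8 groups (12496 of the 18198 IDs with a count), TMM scaling, and a quasi-likelihood fit to all 24 libraries. Each dose was tested against vehicle, 10 against 3 µg/kg, any dose by F test, and a slope on dose rank. P-values were adjusted by Benjamini-Hochberg over all genes, with calls below 0.05. The SE is the size of the log2 value divided by the square root of F. The pipeline was tested on simulated data. Alternatives were RLE scaling, DESeq2 1.42.0, other filters, a replicate block, the groups compared alone, another dose scale, and leaving out each library. Leaving out the 10 µg/kg group was added after seeing the data.

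The 5 genes and all lists were chosen with earlier results of these data known. Always named were the 5 genes, and the 2 IDs most like each tested gene over group means, limited to 2 that rise and 2 that fall. Pathway and marker lists went unused, since 0 of the 26404 IDs matched a symbol in the RefSeq table. Replicate libraries differed by more than sampling noise (chi-square of 13.9 to 58.4 per degree of freedom).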

Additional observations from a re-analysis of the deposited data

How the results depend on the processing

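Few counts limit Ptgs2 and Alox5, and the spread between rats limits Ephx2. Under settings other than leaving out 1 library, 262 values were unchanged, 4 newly passed, 2 no longer passed and 0 turned. For a test, unchanged means the same direction and side of the threshold. The 262 also include group mean CPM values without scaling factors, which have no threshold. Those were counted as unchanged where they moved by less than the SD of the group. For Ptgs1 at 10 µg/kg the log2 value was -0.57 with DESeq2 (adjusted p = 0.0465), past the threshold. For Ptgs2 at 10 µg/kg it was 2.94 in a fit of the 2 groups alone (edgeR adjusted p = 0.0359), also past it. For Alox5 at 3 µg/kg that fit gave 2.44 (edgeR adjusted p = 0.158), with the call lost. Without the 10 µg/kg libraries, a choice made after seeing the data, the slope of Ptgs2 was 0.31 (edgeR adjusted p = 0.208), with the call lost. DESeq2 gave no adjusted p for 12 comparisons of Ptgs2 and Alox5. The causes were not tested.

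With the replicate number as a block, Ptgs1 at 10 µg/kg was -0.58 (edgeR adjusted p = 0.0312) and Ptgs2 3.02 (edgeR adjusted p = 0.0451), both past the threshold, and no other call of the 5 genes changed. The block gave 3773 calls at 10 µg/kg against 3530. The numbers were not taken to pair the rats: 42 of 84 same-numbered pairs had a correlation of deviations above 0.1. The median was 0.0985, against -0.0571 for other numbers. Deviations within a group cancel out, so the second value largely follows from the first and is no separate evidence. For vehicle and 10 µg/kg the same-number correlations were 0.362, 0.169 and 0.0910, and 4 of 6 libraries correlated best with their own number.

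Leaving out 1 library gave 450 values on the same side and with the same sign, 22 with the other sign (all of differences that were not called), 3 newly past the threshold and 5 no longer past it. At 10 µg/kg Ptgs1 ran from -0.74 to -0.31. Sign changes came from these ranges. Ptgs1 ran from -0.21 to 0.23 at 0.01 and -0.19 to 0.25 at 0.03 µg/kg, and for 10 against 3 µg/kg from -0.21 to 0.22. Ptgs2 ran from -3.25 to 0.62 at 0.03, -0.046 to 2.30 at 0.1 and -0.50 to 0.85 at 0.3 µg/kg. Alox5 ran from -0.37 to 1.07 at 0.03 and -0.57 to 0.87 at 0.1 µg/kg. Alox15 ran from -0.59 to 0.55 at 0.03 µg/kg. Ephx2 ran from -0.89 to 0.17 at 0.01 and -0.76 to 0.31 at 0.3 µg/kg, and from -0.66 to 0.59 for 10 against 3 µg/kg.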

Other observations

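Over the deviations of the 24 libraries from their group means, r was 0.05 between Ptgs1 and Ephx2, 0.09 between Alox15 and Ephx2 and 0.34 between Ptgs1 and Alox15. These are descriptions, since libraries of a group share their mean and all share the scaling. The Ephx2 deviations had few companions: among 11350 IDs the highest r was 0.756 and 0 exceeded 0.8, whereas 19 exceeded 0.8 with Ptgs1 and 5 with Alox15.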
